A study of Mus musculus with 4 samples.

Results

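Acrosome protein mRNAs are described here through 10 genes: Acr, Acrbp, Spaca1, Spaca3, Spaca4, Spaca7, Zpbp, Zpbp2, Izumo1 and Dpy19l2. A read cluster was counted for a gene when its centre lay inside the gene span of GENCODE release M21 on mm10 and on the strand of the gene. They are 10 of 21951 protein-coding genes of that release, of which 12312 held a cluster in both replicates. The 10 genes took 328 of 337234 clusters (0.0973%) in replicate 1 and 255 of 216354 clusters (0.118%) in replicate 2.

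The data are IGF2BP3 eCLIP-seq of testes from wild type C57BL/6 mice aged 8 weeks, with germ and somatic cells together. Testes were UV-crosslinked and lysed, and RNA bound to IGF2BP3 was recovered with an antibody in the immunoprecipitation (IP) library. The size-matched input (SMInput) library holds RNA of the lysate without that step. There were 2 replicates of 1 IP and 1 SMInput library each, and each table of clusters set an IP against the SMInput of the same replicate.

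The acrosome is a vesicle that forms from the Golgi apparatus in round spermatids and spreads over the nucleus. It carries proteases and other matrix proteins that are released near the egg, together with membrane proteins for binding and fusion of the gametes. Its mRNAs are made before the spermatid nucleus condenses, and many are stored before they are translated. IGF2BP3 is an RNA-binding protein of the cytoplasm that acts on the stability and translation of mRNAs.

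For each cluster the tables give a log2(fold change) of IP over SMInput and a −log10(P value) that compares reads of these 2 libraries, not groups of animals. A cluster with both values at 2 or more is called a significant peak. Clusters of a gene share the same RNA and are not replicates. IP and SMInput reads behind a cluster were recovered from its values. Library totals found from the tables were 5133438 IP and 8706391 SMInput reads in replicate 1, and 4637612 and 16696122 in replicate 2. The recovery can return no SMInput number below 1, so it cannot show whether a number of 1 stands for no read.

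The labelled tissue was checked with 25 marker genes of testicular cell types. All 25 held clusters in replicate 1 and 24 did in replicate 2, where Rhox5 of Sertoli cells held none. The 5 spermatid markers, Acrv1, Prm1, Prm2, Tnp1 and Tnp2, held 50 clusters in replicate 1 and 41 in replicate 2, with 5132 and 9568 SMInput reads. Over the 25 markers SMInput reads were most numerous in Insl3 of Leydig cells in replicate 1 (2536, and 4061 in replicate 2) and in Clu of Sertoli cells in replicate 2 (5210, and 2123 in replicate 1). Among the spermatid markers Prm2 had the most, 1903 and 3827. Spermatocyte markers had 3550 and 6343 SMInput reads, spermatogonial markers 241 and 428, Sertoli markers 2906 and 6883, Leydig markers 2654 and 4280, and myoid markers 180 and 306. Markers of every listed germ and somatic cell type were thus present. The SMInput numbers are sums over clusters with recovered reads alone, and a read that spans touching clusters may count more than once. They are therefore not measures of RNA amount. The libraries are of whole testis, so fewer cells of a type and less RNA per cell cannot be told apart in any SMInput number below.

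All 10 acrosome genes held clusters in both replicates, and each had a significant peak in at least 1 replicate. Of protein-coding genes with clusters in both replicates, 71.6% had a peak in at least 1 replicate, 46.1% in replicate 1 and 64.6% in replicate 2. Replicate 1 held 39 peaks of the acrosome genes, in 7 genes, and replicate 2 held 43, in 9 genes. These were 11.9% of the acrosome gene clusters in replicate 1 (95% Wilson interval 8.82 to 15.8) and 16.9% in replicate 2 (12.8 to 21.9). Among all clusters, 4.92% were significant in replicate 1 and 13.2% in replicate 2. The interval of the acrosome genes lay above the share of all clusters in replicate 1 and held it in replicate 2. The intervals cover counting error only, and no test was made over clusters. With both thresholds at 3 the peaks numbered 11 and 7. The share of all clusters was not counted at these thresholds, and 4.92% and 13.2% are no background for 11 and 7. With the gene taken from the nearest transcription start site the peaks numbered 25 and 27, for which no share is given. Dpy19l2 then had 2 and 3 in place of 15 and 15, and Izumo1 had 0 in both replicates.

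Enrichment was common at a lower level. The median log2(fold change) of acrosome gene clusters was 1.50 in replicate 1 and 1.63 in replicate 2, beside 1.50 and 1.53 over all clusters. In replicate 1, 314 of 328 clusters lay above 0, and in replicate 2, 246 of 255 did. In the whole data 309607 of 337234 and 202092 of 216354 clusters lay above 0. Medians and counts above 0 of the acrosome genes were therefore near those of the whole tables.

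**Figure D1:**
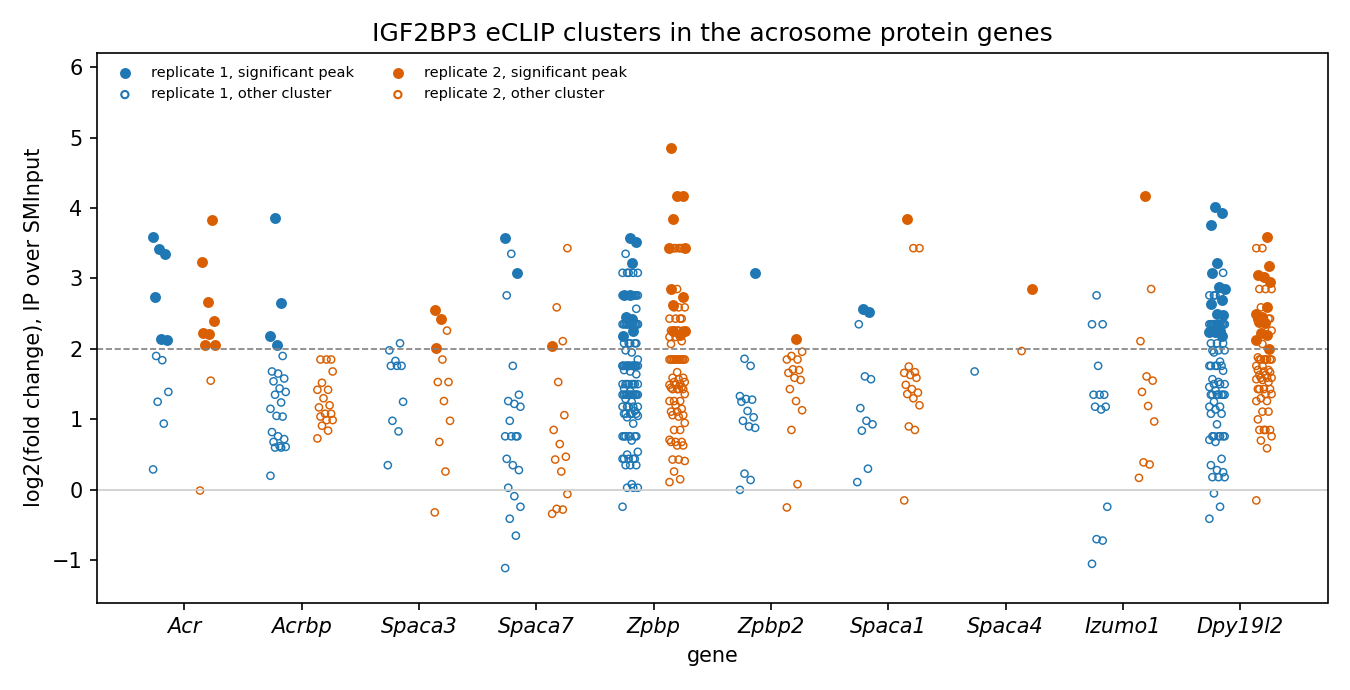
The log2(fold change) of IP over SMInput is plotted for every cluster of the 10 acrosome genes, replicate 1 in blue and replicate 2 in orange. Filled points are significant peaks, Zpbp and Dpy19l2 hold most points, and the 18 Acrbp clusters of replicate 2 all lie below the dashed line at 2.

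Depth differed between positions in these genes. Clusters inside exons of the acrosome genes had a median of 17 IP and 10 SMInput reads in replicate 1, and 13 and 16 in replicate 2. Intronic clusters had 4 and 2 in replicate 1, and 4 and 4 in replicate 2. Most intronic clusters came from Zpbp and Dpy19l2, whose spans reach 182783 and 139247 bases. Exonic values therefore rest on more reads than intronic ones.

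Coding sequence held most of the peaks of the acrosome genes, 26 of 39 in replicate 1 and 27 of 43 in replicate 2. Of the clusters in coding sequence, 22.6% were significant in replicate 1 (15.9 to 31.1) and 23.9% in replicate 2 (17.0 to 32.5). Over coding sequence of all genes the shares were 5.28% and 7.96%. Acrosome gene clusters in coding sequence had medians of 17 and 13 IP reads, beside 7 in each replicate over all coding clusters, and the part of depth in the shares was not tested. Among coding clusters with at least 10 IP reads, 28.7% of the acrosome gene clusters were significant in replicate 1 (20.3 to 39.0) and 37.1% in replicate 2 (26.8 to 48.9), beside 15.5% of all such clusters in replicate 1 and 15.5% in replicate 2. Without regard to position, clusters with at least 10 IP reads were significant in 29.6% (22.0 to 38.5) and 33.7% (24.9 to 43.8) of cases in the acrosome genes and in 24.8% and 27.3% over the tables. These intervals held the shares over the tables in both replicates. IP reads also enter the fold change, so that a minimum of IP reads favours enriched clusters and does not set depth equal.

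These coding peaks were not spread evenly over the acrosome genes. Acr, Zpbp and Dpy19l2 held 22 of the 26 in replicate 1 and 23 of the 27 in replicate 2. In the coding sequence of the other 7 genes, 4 of 57 clusters were significant in replicate 1 (7.02%, 2.76 to 16.7) and 4 of 56 in replicate 2 (7.14%, 2.81 to 17.0). These clusters were deeper than coding clusters over all genes, with medians of 19.5 and 12 IP reads beside 7 in each replicate, and their shares were not adjusted for it. Acr, Zpbp and Dpy19l2 were set apart after their values were seen.

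3′UTRs held fewer clusters of the acrosome genes than coding sequence. They held 22 of 328 clusters in replicate 1, or 6.71% (4.47 to 9.95), and 21 of 255 in replicate 2, or 8.24% (5.45 to 12.3). Over all clusters 10.9% and 14.0% lay in 3′UTRs. The 3′UTRs of these mRNAs are of unequal length, from 34 bases in Izumo1 to 2977 in Zpbp, and that was not adjusted for. Of the 3′UTR clusters of the acrosome genes, 8 of 22 (36.4%, 19.7 to 57.0) were significant in replicate 1 and 7 of 21 (33.3%, 17.2 to 54.6) in replicate 2. The shares over all 3′UTR clusters were 19.4% and 34.5%, just below the interval in replicate 1 and inside it in replicate 2.

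Intronic clusters of the acrosome genes were seldom significant, 5 of 178 (2.81%, 1.21 to 6.41) in replicate 1 and 8 of 115 (6.96%, 3.57 to 13.1) in replicate 2. All intronic clusters gave 1.94% and 10.8%. The intronic peaks had 7 to 11 IP reads in replicate 1 and 4 to 8 in replicate 2. Of these, 3 of 5 and 4 of 8 stood against a single SMInput read, so that their fold changes rest on very few reads.

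Replicates were compared at the level of genes and of positions. A significant peak was present in both replicates for 6 of the 10 genes, Acr, Spaca1, Spaca7, Zpbp, Zpbp2 and Dpy19l2, beside 39.1% of protein-coding genes with clusters in both. With both thresholds at 3 this held for 3 genes, and it held for 4 with the centre in an exon and for 4 with at least 10 IP reads. The share of all protein-coding genes was not counted at these settings, and 39.1% is no background for them. In Acr, Zpbp and Dpy19l2, 3 of the 10 genes, peaks of both replicates shared 1 or more bases of the same strand, beside 16.6% of protein-coding genes. Genes with more clusters have more chances to be counted, and this was not adjusted for.

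Most acrosome gene peaks of either replicate met a cluster of the other, also where that cluster missed the thresholds. Of the 39 peaks in replicate 1, 33 overlapped a cluster of replicate 2, and 17 overlapped a significant one. Of the 43 in replicate 2, 32 overlapped a cluster of replicate 1, and 14 a significant one. Each of these peaks met at least 1 cluster of the other replicate with a log2(fold change) above 0. Of all clusters 309607 of 337234 and 202092 of 216354 lay above 0, so that this says little about agreement. Among the significant peaks of all genes, 53.4% in replicate 1 and 41.7% in replicate 2 met any cluster of the other, and 33.0% and 18.5% met a significant one. Depth was not adjusted for.

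Acr encodes acrosin, a serine protease that is stored in the acrosome as the inactive precursor proacrosin. Its 12 clusters in replicate 1 and 10 in replicate 2 all lay in coding sequence, with medians of 2.01 and 2.22. Of these, 6 and 8 were significant. The highest values of both replicates fell on nearly the same bases of exon 5, the last exon. In replicate 1 chr15:89574254-89574344 had a log2(fold change) of 3.59 and a −log10(P value) of 41.2, from 149 IP and 21 SMInput reads. In replicate 2 chr15:89574257-89574348 had 3.83 and 88.0, from 162 IP and 41 SMInput reads. No other cluster of the 10 genes had a higher −log10(P value) in either replicate.

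Peaks of Acr touched each other along the end of its coding sequence. In replicate 1 they ran without a gap from 89574071 to 89574436, with log2(fold change) of 2.14, 2.74, 3.42, 3.59 and 3.35 in the order of the mRNA. In replicate 2 they ran from 89574046 to 89574432 with 2.05, 2.40, 3.83 and 3.24. Enrichment was thus lowest at the upstream end of the run in both replicates and highest in its later part. The last peaks were centred 38 bases before the stop codon in both replicates, and no cluster was centred in the 3′UTR of 157 bases.

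Peaks of Acr also lay upstream of this run, with values up to 2.66. In exon 4 a peak of 25 bases at chr15:89573240-89573264 had a log2(fold change) of 2.12 in replicate 1, and chr15:89573239-89573260 had 2.23 in replicate 2. A cluster at the start of exon 5, chr15:89573879-89573935, was significant in replicate 2 with 2.66, and its counterpart in replicate 1 had 1.84. Exons 1 and 2 each held a peak in replicate 2 alone, with 2.21 and 2.05. The overlapping clusters of replicate 1 had 1.39 and 0.94, both below the threshold.

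Acrbp encodes the protein that binds proacrosin, and mouse Acrbp is known to give a short isoform by retention of an intron. It had 25 clusters in replicate 1 and 18 in replicate 2, and all of them lay above 0. The highest, at chr6:125051289-125051310 in exon 4 of replicate 1, had a log2(fold change) of 3.86 from 60 IP and 7 SMInput reads. The cluster over the same bases in replicate 2 was wider, chr6:125051241-125051351, and had 1.52 from 98 IP and 123 SMInput reads. Exon 4 was thus significant in replicate 1 alone. All Acrbp clusters of exons 1 to 4, in both replicates, also lie inside Gm44597, a long non-coding RNA gene annotated on the same strand.

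Of the Acrbp clusters 4 were significant in replicate 1 and 0 in replicate 2, although the P value passed its threshold in 16 and 12 clusters. Its median log2(fold change) was 1.24 and 1.19. SMInput reads over the exonic clusters of Acrbp were the most numerous per covered length of the 10 genes, 775 per kb in replicate 1 and 1120 per kb in replicate 2. The other genes ranged from 112 to 331 per kb in replicate 1 and from 179 to 562 in replicate 2. Many Acrbp clusters were therefore deep, moderately enriched and below the fold threshold. Reads per covered length also depend on cluster width, which was not adjusted for. The Acrbp cluster chr6:125053490-125053497 of replicate 1, of 8 bases, had 21 SMInput reads.

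The Acrbp clusters gathered on the first 5 exons and on the sequence just after exon 5. Those of exons 1 to 4 also lie inside Gm44597, and reads of the overlapping genes were not separated. There were 21 clusters before exon 6 in replicate 1, with a median of 51 IP reads, and 4 over exons 6 to 10, with a median of 12. In replicate 2 there were 13 with a median of 59 and 5 with a median of 10. The medians of log2(fold change) were close, 1.24 and 1.05 in replicate 1 and 1.20 and 1.17 in replicate 2. This split was chosen after the values were seen.

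A pair of the Acrbp peaks of replicate 1 lay past exon 5, at chr6:125054093-125054109 with a log2(fold change) of 2.65 and at chr6:125054110-125054180 with 2.19. They fall in intron 5 of the longest coding transcript and in the 3′UTR of a shorter transcript that ends at 125054194. In replicate 2 chr6:125054084-125054172 had 1.85 from 72 IP and 72 SMInput reads, the highest value of Acrbp there, which shallower clusters in exons 3 and 10 shared. The region was enriched in both replicates and passed the fold threshold in replicate 1 alone.

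Spaca3 encodes a lysozyme-like protein of the acrosome. It had 10 clusters and 0 peaks in replicate 1, where the highest value was 2.08 in an intron, at chr11:80859432-80859478, from 5 IP and 2 SMInput reads. In replicate 2, 3 of 12 clusters were significant. The highest, at chr11:80867636-80867665 in the last exon, had 2.55 from 13 IP and 8 SMInput reads, and a touching peak at chr11:80867666-80867759 in the 3′UTR had 2.02. In replicate 1 the cluster over both had 0.98. A peak in exon 5, at chr11:80864563-80864591, had 2.43, and the overlapping cluster of replicate 1 had 0.35. The Spaca3 peaks were thus significant in replicate 2 alone.

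Spaca7, which encodes a protein secreted from the acrosome, had 23 clusters in replicate 1 and 15 in replicate 2, with 2 and 1 peaks. Its highest peaks were intronic, at chr8:12578258-12578382 with 3.57 from 7 IP reads in replicate 1 and at chr8:12584961-12585014 with 2.04 from 8 IP reads in replicate 2. They did not overlap. Exonic clusters of Spaca7 had medians of 0.76 and −0.06, the latter the lowest exonic median of the 10 genes in replicate 2. A 3′UTR peak at chr8:12600673-12600714 had 3.08 in replicate 1, and the wider cluster there in replicate 2 had 1.06.

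Zpbp encodes a zona pellucida binding protein of the acrosomal matrix. It held 129 clusters in replicate 1 and 86 in replicate 2, of which 9 and 12 were significant. Of these clusters 107 and 67 were intronic. The deepest Zpbp peaks lay in exon 5 of its 8 exons. In replicate 1 chr11:11408413-11408537 had a log2(fold change) of 2.76 and a −log10(P value) of 16.0 from 72 IP and 18 SMInput reads, and the touching chr11:11408538-11408605 had 3.52. In replicate 2 a single peak, chr11:11408387-11408582, covered most of both with 3.43 and 33.8 from 69 IP and 23 SMInput reads. Exon 5 was significant in both replicates with similar values.

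Around the stop codon of Zpbp both replicates were significant again. In replicate 1 chr11:11282617-11282677 had a log2(fold change) of 2.45 and chr11:11282571-11282616 had 2.43. In replicate 2 chr11:11282561-11282697 had 2.20 from 37 IP and 29 SMInput reads. Further into the long 3′UTR of Zpbp, 4 peaks in replicate 2 met no cluster of replicate 1. The highest of these, chr11:11282386-11282401, had 4.85 from 8 IP reads and 1 SMInput read. In replicate 1 the highest Zpbp value was intronic, 3.57 at chr11:11443189-11443204, from 7 IP reads and 1 SMInput read.

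Zpbp2, a paralog of Zpbp that encodes a related protein, had 15 clusters in replicate 1 and 16 in replicate 2, and 1 peak in each. The peak of replicate 1, chr11:98558527-98558584 in the 3′UTR, had 3.08 from 15 IP and 3 SMInput reads. In replicate 2 the overlapping cluster had 1.71. The peak of replicate 2, chr11:98552472-98552582 in exon 3, had 2.14, and the overlapping cluster of replicate 1 had 1.28. Zpbp2 is therefore counted in both replicates through different positions. Its exonic medians were 1.19 and 1.62.

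Spaca1 encodes a membrane protein of the inner acrosomal membrane. Its peaks of replicate 1 were in its last exons, chr4:34028452-34028558 with a log2(fold change) of 2.57 from 35 IP and 10 SMInput reads, and chr4:34029065-34029147 with 2.53. The overlapping clusters of replicate 2 had 0.85 and 1.43. The single peak of replicate 2, chr4:34033942-34034011, was intronic with 3.85 from 4 IP reads and 1 SMInput read. Like Zpbp2, Spaca1 was significant in both replicates at positions that did not overlap.

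Spaca4, a gene of 1 exon that encodes a small membrane protein of sperm, had 1 cluster in replicate 1 and 2 in replicate 2. In replicate 1 chr7:45725424-45725583 had a log2(fold change) of 1.68 and a −log10(P value) of 4.35 from 34 IP and 18 SMInput reads. In replicate 2 chr7:45725431-45725531 had 2.85 and 12.8 from 32 IP and 16 SMInput reads. The same part of the coding sequence was enriched in both replicates, below the fold threshold in replicate 1 and above it in replicate 2. SMInput reads of Spaca4 were few per covered kb, 112 and 179.

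Izumo1 encodes the sperm membrane protein that binds JUNO on the egg before fusion. It had 14 clusters in replicate 1 and 11 in replicate 2, and no cluster of one replicate overlapped a cluster of the other. In replicate 1 none was significant, and the highest value, 2.76 in an intron at chr7:45624333-45624388, came from 4 IP reads and 1 SMInput read. In replicate 2 the single peak, chr7:45627269-45627324, had 4.17 from 5 IP reads and 1 SMInput read. It lay inside the gene span but past the end of the annotated basic transcript at 45627242. Past that end, chr7:45628231-45628241 and chr7:45628242-45628276 of replicate 1 and chr7:45628057-45628145 of replicate 2 also lay inside Rasip1 on the same strand. Reads of the overlapping genes were not separated. Exonic clusters of Izumo1 had medians of −0.47 and 0.97, and none was significant in either replicate.

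Dpy19l2 encodes a protein of the inner nuclear membrane that anchors the acrosome to the nucleus. It had 88 clusters in replicate 1 and 68 in replicate 2, and 15 were significant in each, or 2 and 3 with the gene taken from the nearest transcription start site. Of the 15, 14 lay in exons in each replicate. Peaks of both replicates overlapped at 7 clusters of replicate 1 and 7 of replicate 2. Dpy19l2 peaks were found along much of the mRNA, and their read numbers were lower than those of Acr in exon 5.

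Toward the 3′ end of Dpy19l2, in exon 22, peaks lay in its 3′UTR of 990 bases. In replicate 1 chr9:24557264-24557385 had a log2(fold change) of 2.24 from 39 IP and 14 SMInput reads, and in replicate 2 chr9:24557243-24557374 had 2.46 from 29 and 19. Nearer the stop codon, chr9:24557790-24557904 had 2.48 in replicate 1 and chr9:24557863-24557924 had 3.05 in replicate 2. Between them, chr9:24557591-24557715 in replicate 1 and chr9:24557603-24557760 in replicate 2 were enriched with 1.46 and 1.88, below the threshold in both. Exon 22 thus held enriched clusters in both replicates at these 3 positions of the 3′UTR. A further peak there, chr9:24557463-24557534 with 2.64 from 22 IP and 6 SMInput reads in replicate 1, met no cluster of replicate 2.

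Coding exons of Dpy19l2 held 11 peaks in replicate 1 and 12 in replicate 2. Exon 16 had 3.93 at chr9:24617443-24617496 in replicate 1, from 9 IP reads and 1 SMInput read, and 3.59 at chr9:24617439-24617490 in replicate 2, from 10 and 3, the highest value of Dpy19l2 there. Exon 18 held touching peaks, with 2.25 and 2.85 in replicate 1 and 2.13 and 2.49 in replicate 2. Exons 11 and 14 were significant in both replicates as well. The highest value of replicate 1, 4.01 in exon 13 at chr9:24631199-24631280 from 19 IP and 2 SMInput reads, met clusters with 1.11 and 1.85 in replicate 2. Exons 7 and 8 showed the reverse order, with up to 2.95 and 2.43 in replicate 2 and 0.76 and 0.68 in replicate 1.

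**Figure D2:**
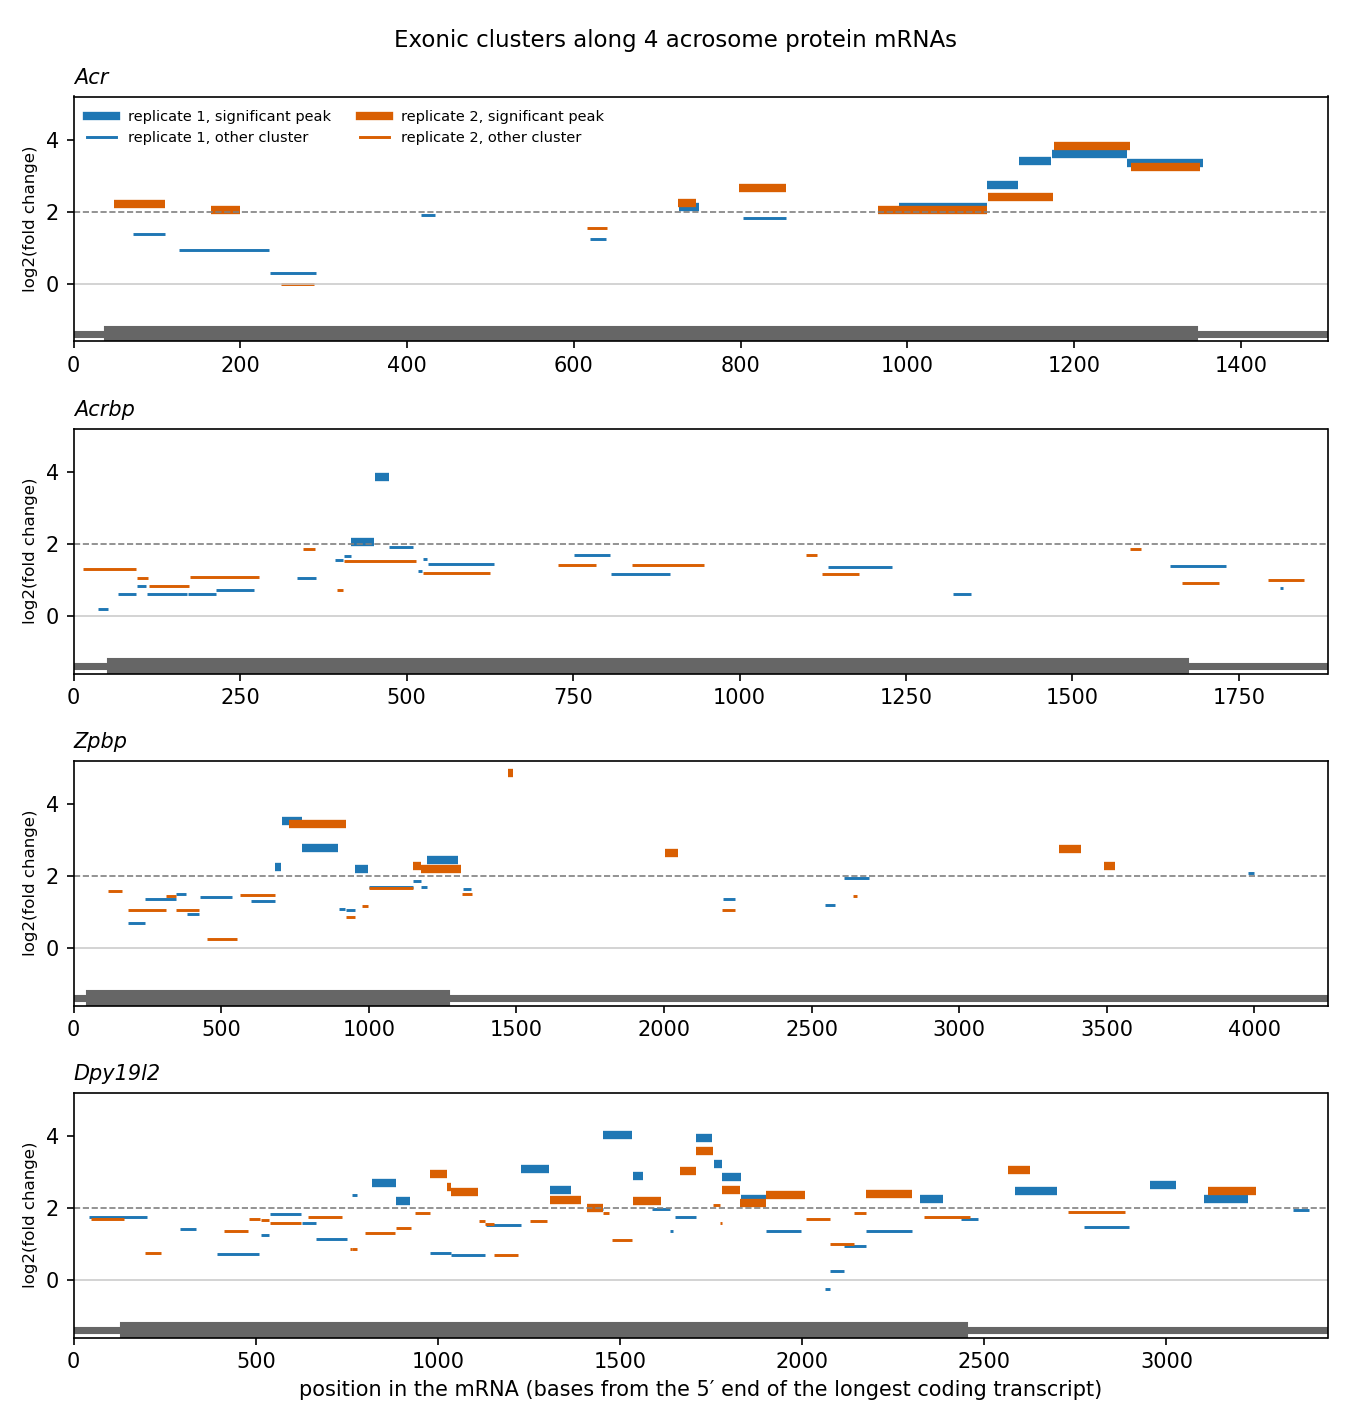
The log2(fold change) of exonic clusters is drawn along the Acr, Acrbp, Zpbp and Dpy19l2 mRNAs, in bases from the 5′ end of the longest coding transcript, with replicate 1 in blue and replicate 2 in orange. Thick bars are significant peaks above the dashed line at 2, the wide grey bar is the coding sequence, Acrbp clusters in intron 5 are not drawn, and peaks of Acr rise to 3.59 and 3.83 near the end of the coding sequence.

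Sequences at shared positions of Acr, Zpbp and Dpy19l2 are shown to let the bases under the peaks be read. Each is a run of 30 bases centred on the shared part of overlapping significant peaks, written 5′ to 3′ on the strand of the mRNA from the GRCm38 reference, which has the coordinates of mm10. For each gene the pairs of peaks ranked first and next by the smaller −log10(P value) of the replicates were taken. Capitals mark the motif ACACA, and the runs without capitals hold none of the searched motifs. The Acr runs are in coding sequence of exon 5, at chr15:89574286-89574315 and chr15:89574241-89574270 on the plus strand. The next Acr pair shares 3 bases, so that most of its run, the motif included, lies outside the part shared by this pair. The motif lies outside the replicate 1 peak of this pair. It lies inside the touching significant peak of replicate 1, chr15:89574215-89574253, which overlaps the same peak of replicate 2. The Zpbp runs are in coding sequence of exon 5, at chr11:11408461-11408490 and chr11:11408546-11408575 on the minus strand, under the same peak of replicate 2. The Dpy19l2 runs are in the 3′UTR, at chr9:24557305-24557334 and chr9:24557869-24557898 on the minus strand.
Acr, first: agcgcctcatagaggccctgaagatgagaa
Acr, next: aACACAtgaggcaccgcacaacgctgtctt
Zpbp, first: ttcttgacctttcctgtgaaatatccttga
Zpbp, next: acagctcgataccatgcagctccctgcaac
Dpy19l2, first: acatataattacttgcaataggtatgcaat
Dpy19l2, next: ctggttactactaatgataaattacttcat

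Motifs were counted in windows that reached 50 bases to each side of the centre of each acrosome gene peak, on the strand of the mRNA and not on the other strand. GGAC is a core in which the methylation m6A is often found. The other searched motifs, which are rich in A and C, were ACACA, then AAACC, and last GAACA. The paper names AAACC and GAACA as m6A motifs, found in the consensus of its overlapping peaks. GGAC was in 3 of 39 windows (7.69%) in replicate 1 and in 11 of 43 (25.6%) in replicate 2. Windows of all clusters held it in 25.6% and 25.8%, and those of all significant peaks in 26.4% and 24.2%. The share in the acrosome genes was lower than that of all clusters in replicate 1 and close to it in replicate 2, and the difference between the replicates was not tested.

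In coding sequence GGAC was in 2 of 26 windows of acrosome gene peaks (7.69%) in replicate 1 and in 7 of 27 (25.9%) in replicate 2. It was in 33.2% and 33.0% of all coding windows, and in 29.9% and 29.6% of windows of all significant coding peaks. ACACA was in 4 of the 39 windows and in 5 of the 43, or 10.3% and 11.6%, beside 10.6% and 9.62% of all windows. AAACC was in 6 (15.4%) and 1 (2.33%), beside 7.76% and 7.33%. GAACA was in 1 (2.56%) and 3 (6.98%), beside 9.48% and 9.07%. Windows of all significant peaks held ACACA in 11.2% and 10.8%, AAACC in 8.71% and 8.24%, and GAACA in 8.98% and 8.48%. Touching peaks share part of their windows, and a match or its absence describes these letters alone.

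Other genes of the acrosome were taken from a list of 53, of which 52 were matched to the annotation and Fimp was not. Of the 52, 47 held clusters in both replicates, and Dcst2 and Actrt1 held none in either. A significant peak was present in both replicates for 29 of these 47 genes, beside 39.1% of protein-coding genes with clusters in both. Of all 52 genes, 10 had a peak in 1 replicate and 13 in neither. By role, and among genes with clusters in both replicates, the 29 were 9 of 13 genes for matrix proteins and proteases, 3 of 10 for membrane and fusion proteins, and 17 of 24 for acrosome formation, vesicle traffic and attachment. Of the clusters of the 52 genes, 8.62% were significant in replicate 1 and 18.2% in replicate 2, beside the 4.92% and 13.2% of all clusters. By role the shares were 22.9% and 26.1% for the matrix group, 4.96% and 14.6% for the membrane group and 6.11% and 16.0% for the formation group. Depth differed between these groups too, with 4538 IP reads over 175 clusters of the matrix group in replicate 1, 798 over 121 of the membrane group and 5266 over 818 of the formation group. Its part in the shares was not tested.

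Among the matrix genes, Hyal5, a hyaluronidase of sperm, had 4 peaks of 8 clusters in replicate 1 and 8 of 8 in replicate 2. Its highest values were 4.81 in replicate 1, from 33 IP and 2 SMInput reads, and 3.85 in replicate 2, from 12 and 3, both in coding sequence. Lyzl6, a lysozyme-like protein, had its highest values in the 3′UTR, with 3.46 in replicate 1 and 4.15 in replicate 2, the latter from 64 IP and 13 SMInput reads. Prss37, of the serine protease family, had 3.93 and 3.53 in coding sequence. Spesp1, a protein of the equatorial segment, had 3.46 and 4.43 in its 3′UTR, from 13 and 6 IP reads. Being high in both replicates follows from how these 4 genes were chosen, and their highest peaks did not overlap between the replicates.

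Among the genes for acrosome formation, Agfg1, which is needed for the fusion of vesicles into the acrosome, had 12 peaks in replicate 1 and 9 in replicate 2, with highest values of 4.57 and 3.68. Mfsd14a had 8 and 12 peaks, with highest values of 3.50 and 3.66. Gopc, a Golgi protein, had highest values of 3.93 and 3.23, both in the 3′UTR. Csnk2a2, a kinase subunit, had 3.93 and 3.85, from 9 and 4 IP reads. The highest values of Agfg1, Mfsd14a, Gopc and Csnk2a2 lay at different positions in the 2 replicates.

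The highest values of the remaining named genes rested on few reads in at least 1 replicate. Sec23ip had 3.76 and 3.43 from 8 and 6 IP reads. Spata16 had intronic values of 3.57 and 4.17 from 7 and 5 IP reads. Atg7, of the autophagy pathway, had 4.67 from 15 IP reads in an intron and 3.17 from 5 IP reads in coding sequence. Tbc1d20 had 2.96 from 23 IP reads and 4.17 from 5. No membrane or fusion gene was among the 12 with the highest smaller value. The highest of that group was Llcfc1, with 3 peaks of 6 clusters in replicate 1 and 5 of 5 in replicate 2. Its highest values, in the 3′UTR, were 2.72 and 4.66 from 70 and 63 IP reads.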

How the data were processed

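IGF2BP3 eCLIP-seq of testes was used from 2 replicates, each with an IP and an SMInput library. The authors trimmed reads with cutadapt 4.5, removed ribosomal RNA reads with Bowtie2 2.3.5.1, aligned the rest to mm10 with STAR 2.7.10b, collapsed PCR duplicates by molecular identifiers and called clusters with Clipper 2.1.2. In the deposited tables the −log10 column holds the authors' P values, which compare IP and SMInput reads of a cluster, are 0 without enrichment and reach 400 at most. The deposited log2 values are the authors' fold changes, each library scaled to its total. Replicates were called separately.

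Clusters with both values at 2 or more were counted as significant peaks, as in the study. Genes came from GENCODE M21. Regions came from its basic transcripts, where a 3′UTR took precedence over coding sequence, then came 5′UTR, exons of non-coding transcripts and, last, introns. No cluster of the tables ran past a chromosome end of GRCm38 (0 in each replicate). Sequences are from RefSeq's GRCm38. Read numbers were recovered as the whole numbers that return both values under library totals found from each table, with Fisher's exact test where a read number or its expected value was below 5 and Yates' chi-square test otherwise. A single solution was found for 301218 of 301288 clusters with P values between the limits in replicate 1 and for 199756 of 199766 in replicate 2. Clusters at 0 or 400 were left without reads. The procedure was tested on simulated data. Overlap meant 1 or more shared bases on 1 strand. Wilson 95% intervals cover counting error only. Python 3.11.15 was used with numpy 2.4.6, pandas 2.3.3, scipy 1.17.1, matplotlib 3.10.9 and pyfaidx 0.9.0.4.

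All 10 members were named with their counts and highest peak, or their highest cluster where none was significant. Of other acrosome genes, the 12 with the highest smaller value over the replicates of their best significant log2(fold change) were named. Llcfc1 was added as the highest membrane or fusion gene by that value. Members and gene lists were chosen with earlier results of these data known. IP and SMInput libraries were compared within each replicate by the authors, and no test over the 2 replicates was run. Fimp was not analysed here, as its symbol was not in the annotation. Alternatives covered thresholds, gene assignment, read minimum, joining, overlap, region order and each replicate alone.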

Additional observations from a re-analysis of the deposited data

How the results depend on the processing

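Of 50 alternative values, 33 stayed within 1.5 times the count, the 95% interval of the percent or the spread between replicates of the median, and 17 did not. With both thresholds at 3, peaks numbered 11 in replicate 1 and 7 in replicate 2, or 3.35% and 2.75% of clusters, and 3 genes had a peak in both. With the fold threshold lowered to 1, they numbered 70 and 81, or 21.3% and 31.8%, and 7 genes had overlapping peaks. Shares over all clusters were not counted at these thresholds or in exons alone. Numbers of all protein-coding genes were not counted there either, so that these values have no background here. In exons alone 23.3% and 24.6% of clusters were significant, and with at least 10 IP reads, which also leaves out clusters without recovered reads, 29.6% and 33.7%. By the nearest transcription start site there were 25 and 27 peaks. The exonic median in replicate 1 was 1.35. Genes with a peak in each replicate alone numbered 7 to 9, and overlap has no value with a single replicate. Counts of peaks follow the thresholds by construction, and for the other shifts the cause was not tested. No paired analysis was possible for these counts, percents and medians because they come from no test across samples. Each table sets the IP against the SMInput of the same replicate, and a paired comparison of recovered reads over the 2 replicates was not run. Depth limits the intronic values most, and 5 of 39 and 12 of 43 peaks rest on fewer than 10 IP reads.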

Other observations

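Inside the Dpy19l2 span, the opposite strand held clusters in Cypt4, a spermatid gene that overlaps Dpy19l2. In replicate 1 chr9:24625338-24625411 had a log2(fold change) of 2.71 and chr9:24625655-24625677 had 2.14, both significant. In replicate 2 chr9:24625338-24625399 had 1.94, below the threshold, and chr9:24625733-24625741 had 4.85. These were the only clusters on the opposite strand within the spans of the 10 genes.

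Of the spermatid markers, Prm1, Prm2, Tnp1 and Tnp2 had no significant peak in either replicate. Their median log2(fold change) in replicate 1 was 1.07, 0.73, 1.35 and 0.52, and in replicate 2 it was 1.08, 0.63, 1.34 and 0.28. Acrv1, which encodes an acrosomal matrix protein, had 5 peaks of 15 clusters in replicate 1 and 3 of 8 in replicate 2. Its highest values were in the 3′UTR, 2.51 from 47 IP and 14 SMInput reads at chr9:36698744-36698778 in replicate 1 and 2.98 from 83 and 38 at chr9:36698746-36698832 in replicate 2.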
